A study of Homo sapiens with 9 samples.

Results

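DDX21 binding sites were compared between A375 cells exposed to A771726 and A375 cells given DMSO. The members were all peaks of the 2 deposited DDX21 peak lists, 4375 with A771726 and 8321 in DMSO, together 12696 of the 27469 peaks in the 6 peak lists of the series. A site counted as shared when a peak of each list overlapped by at least 1 bp, as kept or missing when a DMSO peak did or did not overlap an A771726 peak, and as new when an A771726 peak overlapped no DMSO peak.

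A375 is a human melanoma line. One group was treated with 25 µM A771726 for 24 h, a further group with 25 µM A771726 and added nucleotides, whose kind and dose the labels do not give, and the vehicle group received DMSO for 24 h. DDX21 was precipitated from crosslinked chromatin with an antibody from Novus Biologicals and the DNA was sequenced. Each group had 1 library, so no difference between them can be set against a replicate error and no test was run. Input libraries are described for each treatment and were not analysed here.

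DDX21 is a DEAD-box RNA helicase. It is concentrated in the nucleolus, where it takes part in ribosomal RNA synthesis and processing, and it is also found at promoters of genes read by RNA polymerase II, where it has been linked to the release of the kinase P-TEFb from the 7SK small nuclear ribonucleoprotein. A771726 is what the drug leflunomide is converted to in the body, and it blocks dihydroorotate dehydrogenase, a mitochondrial enzyme needed to make pyrimidines. The comparison addresses where DDX21 peaks were called, and how high they were, with A771726 and in DMSO. Peak signal is counted in fragments and set against each list's own background. Whether it follows the amount of DDX21 on chromatin or the yield of the precipitation was not tested. Nucleotide levels in the cells were not examined here.

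All positions are of the hg19 build, as deposited and counted from 1, and regions are named by position because no gene annotation of that build was used. Each list gives a peak's start, end, summit, fold enrichment over the local background and −log10 q. The pileup at the summit, the number of DNA fragments that cover it, and the local background, the number expected there, were worked out from the fold enrichment and −log10 p. To obtain a height, each pileup was divided by its own list's lowest background, 1.16 fragments with A771726 and 1.22 in DMSO, which puts libraries of unlike depth on one scale. The libraries were close in depth by this estimate, with 1.06 times as many tags with A771726 as in DMSO. The sources used here give no read totals. Pileups spanned 10 to 232 fragments with A771726 and 8 to 256 in DMSO, and in both lists the highest was exactly 2 times the shortest peak (116 bp with A771726 and 128 bp in DMSO). The sites of highest pileup therefore share a ceiling, and 61 A771726 peaks and 518 DMSO peaks came within 10% of it.

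By overlap with the whole DMSO list, the A771726 sites were almost wholly a subset of the DMSO sites. Of the DMSO peaks, 4068 had no A771726 peak, which is 48.9% of 8321 (95% Clopper-Pearson interval 47.8 to 49.97). The kept share was 51.1%, and it was 88.5% when the 4375 top peaks of each list were compared, so much of the missing share belongs to DMSO peaks beyond that rank. Of the A771726 peaks, 30 were new, 0.686% of 4375 (0.463 to 0.977). New peaks numbered 15 at −log10 q of at least 5, 134 when summits had to lie within 250 bp and 414 between the same number of top peaks. These intervals take each peak as an independent count, and cover no other error.

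At the shared sites DDX21 signal was lower with A771726 almost throughout. Height was lower at 4211 of 4253 shared sites, which is 99.0% of them, and was at most 0.5 of the DMSO height at 3088 sites, or 72.6%. The median pileup was 47 fragments with A771726 and 129 fragments in DMSO at the same sites. The median ratio of heights, A771726 over DMSO, was 0.418 (95% interval of the median 0.414 to 0.423), with quartiles of 0.348 and 0.510. The ratio ran between 0.141 and 1.98 over single sites. The order of the sites by height was largely held, with a Spearman rho of 0.932 over 4253 sites, given as a description because the points share 2 libraries.

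The list from cells with A771726 and nucleotides is given beside these values. Both comparisons share the DMSO list, so they are not independent. With nucleotides the heights had a median ratio of 1.04 over 7180 sites, and 39.2% of sites were lower. At most 0.5 of the DMSO height was reached at 5 of these 7180 sites, or 0.0696%. The middle 90% of height ratios lay between 0.264 and 0.766 with A771726 and between 0.742 and 1.41 with nucleotides. By height these ranges overlapped only at their edges, but they come from unlike sets of sites. At the 4244 sites also kept with A771726, the range with nucleotides was 0.806 to 1.29. By fold enrichment the range with A771726 was wider, 0.264 to 1.18.

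**Figure D1:**
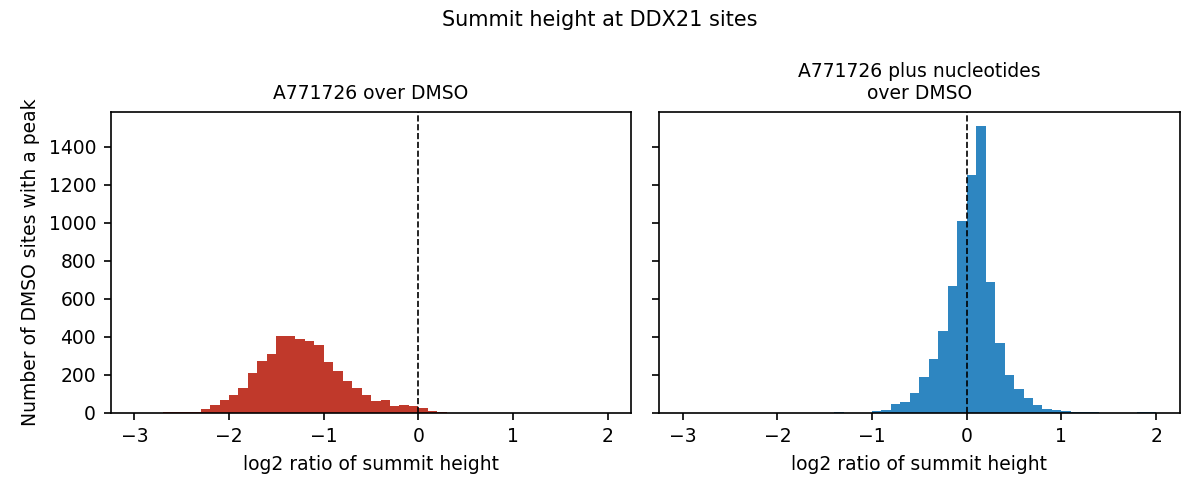
Histograms of the log2 ratio of summit height at DMSO sites, for A771726 over DMSO on the left (4253 sites) and A771726 plus nucleotides over DMSO on the right (7180 sites). The vertical axis counts sites and the dashed line marks equal height. On the right, 37 of the 7180 sites lie above the range drawn, up to a ratio of 13.6, and are not shown. With A771726 the bulk lies left of the line, at a median ratio of 0.418, and with nucleotides it is centred near the line, at 1.04.

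The size of the reduction depended on how it was scaled. The deposited fold enrichment, which sets each summit against its own local background, had a median ratio of 0.542 and was lower at 90.6% of shared sites. The background at shared sites itself was lower with A771726, with a median ratio of 0.709 against the 0.958 by which the lowest backgrounds differ. In the list with nucleotides the background ratio was 0.989. With pileups divided by the median background of the shared sites, a scaling chosen after the values were seen, the median ratio was 0.576 and 93.7% of sites were lower. The share of sites at or under 0.5, 72.6% by height, was 43.1% by fold enrichment and 30.6% by the median background. The part of this lower background in the height ratios was not tested.

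The strongest DMSO sites were kept at reduced height. At the first-ranked DMSO site, chr14:82000013-82000671, the pileup was 106 fragments with A771726 and 243 in DMSO, a height ratio of 0.455, and the peak spanned 557 bp with A771726 and 659 bp in DMSO. At chr16:68482416-68482891 the pileup was 174 with A771726 and 249 in DMSO, a ratio of 0.729. At chrX:48979903-48980424 it was 128 with A771726 and 249 in DMSO, a ratio of 0.537. All 10 of the top DMSO sites were lower with A771726, by ratios of 0.455 to 0.873, and 9 of 10 were narrower. Their DMSO pileups of 233 to 256 were close to the ceiling of that list, and a site at the ceiling of both lists would have a ratio of 0.946, so the heights there are bounded and the ratios approximate. The exception in width was chr16:577219-577811, where the peak measured 606 bp with A771726 and 593 bp in DMSO while the pileup was 177 with A771726 and 253 in DMSO.

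The ranking at the very top was not the same in both lists. Of the top 10 A771726 sites, 1 was among the top 10 of DMSO, chr1:2457308-2458092, with a pileup of 214 with A771726 and 256 in DMSO and a width of 386 bp with A771726 and 785 bp in DMSO. The other 9 ranked as low as 614 in DMSO. Their DMSO pileups were all between 252 and 256, at the ceiling of that list, so their order there rests on the background rather than on height. Of the top 1000 A771726 peaks, 799 were on a top 1000 peak of DMSO and none lacked a DMSO peak.

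Some of the stronger sites were reduced far more than the median. Those named here have the lowest height ratios among shared sites in the upper 50% of the DMSO list by −log10 q. The lowest was chr6:112191215-112191488, with a pileup of 10 with A771726 and 74 in DMSO, a ratio of 0.141. At chr20:52535583-52535869 the pileup was 14 with A771726 and 99 in DMSO, a ratio of 0.148. At chr19:49485599-49485874 it was 19 with A771726 and 125 in DMSO, a ratio of 0.159. The 10 lowest-ratio sites stood at ranks 3490 to 4368 of 4375 with A771726 and at ranks 1298 to 3835 of 8321 in DMSO. The heights with nucleotides at the 10 lowest-ratio sites were between 0.597 and 0.991 of DMSO, with a median of 0.912. At the 10 highest-ratio sites of the same part of the list they were 1.06 to 1.48, and the median over kept sites was 1.06. Both ratios are taken over the same DMSO height, by which these sites were in part chosen. No conclusion is drawn from these values.

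Of these 10 sites, 3 lay in one stretch of chromosome 9. They were chr9:46843890-46844440 (pileup 18 with A771726, 115 in DMSO), chr9:42019164-42019717 (25 with A771726, 156 in DMSO) and chr9:46687334-46687871 (28 with A771726, 167 in DMSO). The stretch chr9:39464296-71395299, marked off after these values were seen, held 17 A771726 peaks and 24 DMSO peaks. Its 17 shared sites had a median height ratio of 0.289 (0.163 to 0.611), set beside 0.418 over all shared sites. With nucleotides the median ratio in the stretch was 0.947. The median background at these sites was 4.17 fragments with A771726 and 6.48 in DMSO, and its part in the ratio was not tested.

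At the other end, 42 shared sites were higher with A771726, or 0.988%. They had a median pileup of 76 with A771726 and 71 in DMSO, so they stood at nearly equal height rather than gaining much. The highest among the stronger sites was chr17:31149356-31149955, with 146 fragments with A771726 and 125 in DMSO, a ratio of 1.22. At chr5:71146670-71147015 the pileup was 213 with A771726 and 209 in DMSO, and at chr11:85194945-85195290 it was 231 with A771726 and 232 in DMSO. The highest ratio of all shared sites, 1.98 at chr15:65809520-65809777, comes from the pairing of peaks: a single A771726 peak overlaps part of that DMSO peak and of its stronger neighbour, and its summit is 356 bp away from the weaker one.

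Near-equal height was common where the local background was high with A771726. A background above 15 fragments in both lists was found at 40 shared sites, where the median height ratio was 0.973 and 17 sites were higher with A771726. A background above 15 fragments with A771726 alone was found at 12 sites, with a median ratio of 1.01. Where the background exceeded 15 fragments in DMSO alone, at 59 sites, the median ratio was 0.527 and none was higher. The remaining 4142 sites had a median ratio of 0.415, and 19 of them were higher. This split was made after the pileups had been plotted. A shared site had to be called against its background in both lists, so background and pileup there are not independent. Which library the background was counted in is not given in the sources used here.

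**Figure D2:**
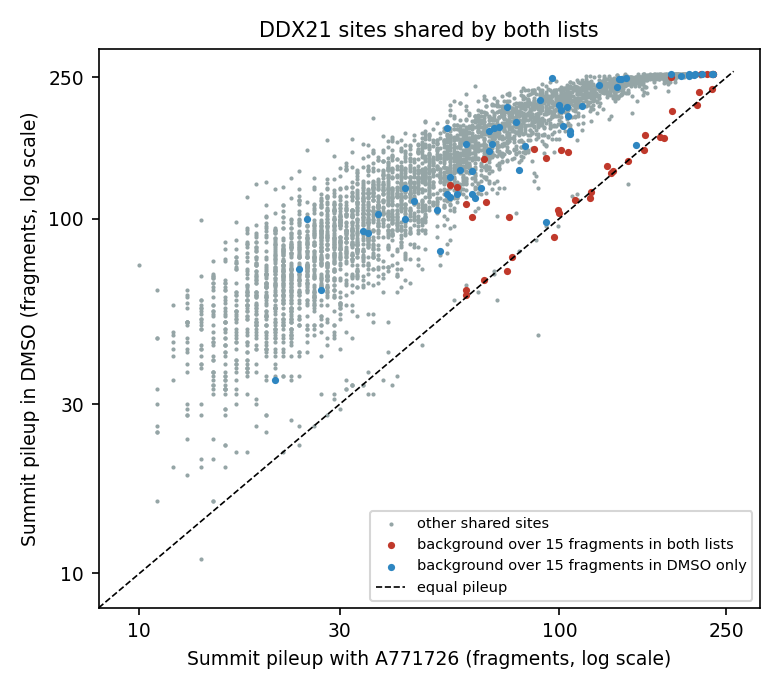
Summit pileup of each of the 4253 shared sites with A771726 (horizontal) and in DMSO (vertical), in fragments on log axes, with the dashed line at equal pileup. Most points lie above the line and bend toward the DMSO ceiling of 256 fragments, and many of the 40 sites with a background over 15 fragments in both lists lie on or near it.

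Several such sites were neighbours. In chr16:33961180-33965714 the 4 shared sites had a median ratio of 1.06, in chr2:133011871-133039146 the 6 shared sites had 1.01, and in chrY:10022365-10037972 the 5 shared sites had 1.03. The backgrounds in these stretches had medians of 17.2, 16.8 and 15.99 fragments with A771726, against 15.1, 11.9 and 15.1 in DMSO, set beside 3.998 with A771726 and 5.04 in DMSO over all peaks of each list. Chromosome Y as a whole had a median ratio of 0.975 over 10 shared sites, 6 of them lower. Of these 10 sites, 5 lay in the chromosome Y stretch just named. The lists do not show whether reads placed on chromosome Y came from it. On the other chromosomes the median ratio ran from 0.381 on chromosome 22 to 0.456 on chromosome 21, so the reduction did not rest on single chromosomes.

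Peaks were narrower as well as lower. With A771726 the peak was narrower at 4179 of 4253 shared sites, which is 98.3%, and wider at 72. The median width was 243 bp with A771726 and 399 bp in DMSO, and the median ratio of widths was 0.639 (0.632 to 0.646). The list with nucleotides had a width ratio of 1.05. The A771726 peak lay inside its DMSO peak at 3860 sites, or 90.8%. The start and the end each moved inward by a median of 63 bp over all shared sites, which does not say whether a single site narrowed on both sides. A peak's width is the stretch above the calling threshold, so a lower peak of the same shape is also a narrower one. How much of the narrowing goes with height alone was not tested.

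The point of strongest signal stayed in place. The summits of a shared site were a median of 12 bp apart and within 50 bp of each other at 4003 sites, or 94.1%, as against a median of 13 bp between the list with nucleotides and DMSO. The DMSO summit lay inside the A771726 peak at 98.7% of shared sites. Shifts to higher coordinates (48.0% of sites) and to lower coordinates (49.7%) were about as common.

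The reductions in height and width varied along the ranking of DMSO sites, and both ratios were lowest among the weaker sites but not the weakest. The shared sites were split into 10 groups of near-equal size by DMSO −log10 q. The median height ratio was 0.591 in the strongest group, lowest at 0.359 in group 8 and 0.471 in the weakest group. In the strongest group the DMSO pileup had a median of 238 fragments, near its ceiling, and from the weaker groups the missing sites are absent. The median width ratio was 0.737 in the strongest group, 0.517 in group 9 and 0.549 in the weakest. Median widths in the strongest group were 397 bp with A771726 and 561.5 bp in DMSO, and in the weakest 156 bp with A771726 and 285 bp in DMSO.

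**Figure D3:**
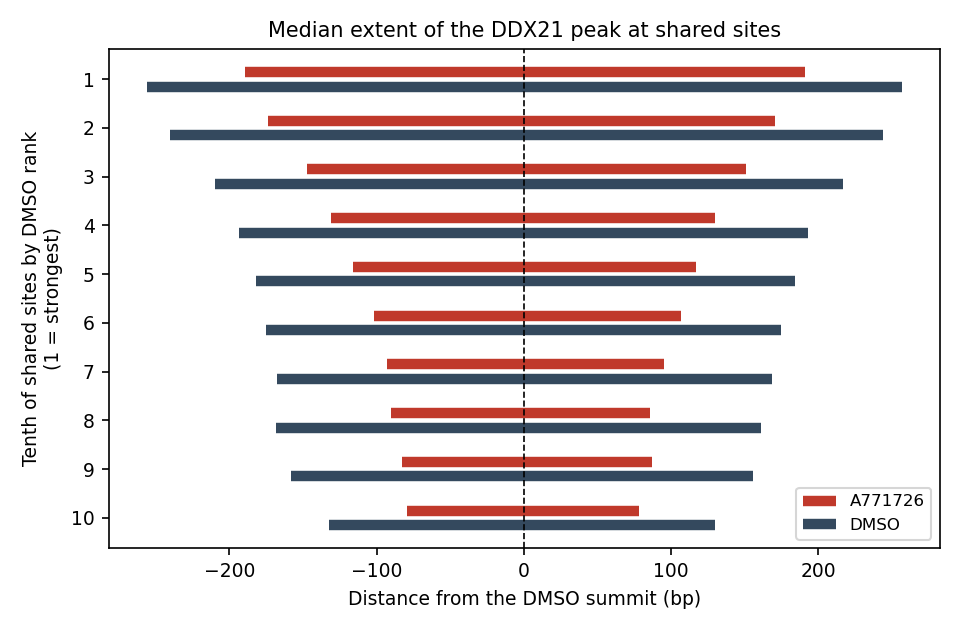
Median start and end of the peak relative to the DMSO summit, in bp, for 10 groups of shared sites ordered by DMSO −log10 q (1 is the strongest), with A771726 above DMSO in each pair. Bars run from -189.5 to 191 bp with A771726 and from -256 to 257 bp in DMSO in group 1, and from -79 to 78 bp with A771726 and from -132 to 130 bp in DMSO in group 10, and both ends lie further in with A771726 in every group.

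Wide DMSO peaks were in places broken up. In 90 DMSO peaks there were 2 or more A771726 peaks, 88 of them with 2. These 90 had a median DMSO width of 760.5 bp, against 399 bp for all kept sites. At chr10:132098910-132100238, 1329 bp wide with a pileup of 82 in DMSO, 3 A771726 peaks with pileups of 20, 27 and 30 were called. Among the widest kept peaks, chr11:64037267-64039123 measured 680 bp with A771726 and 1857 bp in DMSO, the widest of its list, at a pileup of 192 with A771726 and 255 in DMSO.

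Whether a DMSO site was kept followed its DMSO pileup closely. Kept sites had a median DMSO pileup of 129 fragments, a width of 399 bp and a fold enrichment of 18.8 in the DMSO list, whereas missing sites had 31 fragments, 216 bp and 5.77. Of the 794 sites with 8 to 20 fragments, 8 were kept, or 1.01%. The kept share was 21.0% at 41 to 50 fragments, 37.9% at 51 to 60, 61.8% at 61 to 80, 87.6% at 81 to 100 and 97.1% at 101 to 125. Above 125 fragments, 2187 of 2207 sites were kept, or 99.1%.

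At equal pileup, sites on a lower background were kept more often. Among sites with 51 to 60 fragments, 67.2% (53.7 to 79.0) were kept at a DMSO background of up to 2.5 fragments, 45.9% above 2.5 and up to 5, 27.8% above 5 and up to 10, and 18.5% (9.25 to 31.4) above 10. Among sites with 61 to 80 fragments these shares were 82.1%, 71.2%, 55.6% and 48.4%. Width had no such course at every pileup. Of the sites with 51 to 60 fragments, 21.5% (12.3 to 33.5) were kept at widths up to 220 bp and 52.6% (42.1 to 62.97) above 400 bp. At 31 to 40 fragments these shares were 7.94% and 9.68%. At 81 to 100 fragments, 88.5% were kept at widths above 220 and up to 300 bp, 82.7% above 300 and up to 400 bp and 93.4% above 400 bp. A peak is called against its background, so retention and background are not independent.

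**Figure D4:**
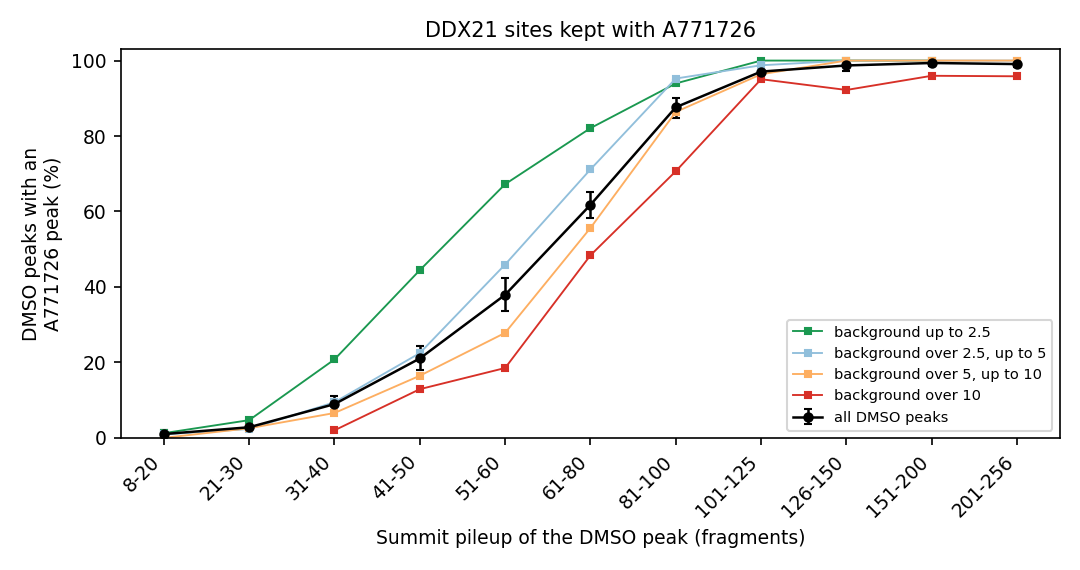
Share of DMSO peaks with an overlapping A771726 peak (percent) by DMSO summit pileup in fragments, for all DMSO peaks in black with 95% Clopper-Pearson intervals and split by the local DMSO background in colour. The share climbs between 31 and 100 fragments, and at 51 to 60 fragments it is 67.2% on the lowest background and 18.5% on the highest.

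Above 125 fragments, the 20 missing sites all had a DMSO background above 10 fragments, and 19 of them above 50. The tallest was chr1:121484406-121485327, with 256 fragments on a background of 184 and a fold enrichment of 1.39, followed by chr7:61968786-61969626, with 254 fragments on 181. At a background of up to 10 fragments, 1790 of 1790 such sites were kept. At the other of the 20, chr1:202976320-202976610, 128 fragments stood on a background of 10.8, with a fold enrichment of 10.9. The background at the rest moves with the call. The first 2 of these sites were also among the 5 widest missing peaks. The other 3 stood on a lower background. They were chr1:45196176-45197016, 841 bp wide with 59 fragments in DMSO, chr16:30669703-30670525, 823 bp wide with 43, and chr3:9438537-9439346, 810 bp wide with 78.

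The missing sites that ranked highest in DMSO were strong peaks far from any A771726 peak. The top 20 missing sites stood at DMSO ranks 1964 to 2771 of 8321, so every site that ranked above the first of them was kept. The list with nucleotides had a peak at 7180 of all 8321 DMSO sites, at 4244 of 4253 kept ones and at all 20 of these. With nucleotides the pileups at the 20 sites were 38 to 128 fragments, with a median of 89. Their DMSO pileups were 69 to 128 fragments, with a median of 109, and their DMSO widths were 231 to 597 bp. The nearest A771726 peak was 5692 to 4993361 bp away.

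The first of them was chr1:101360269-101360865, 597 bp wide in DMSO, with no peak with A771726, 91 fragments with nucleotides and 120 fragments in DMSO on a background of 3.87. The second was chr3:179065213-179065624, with no peak with A771726, 104 fragments with nucleotides and 120 in DMSO. At chr11:33529608-33529875 there was no peak with A771726, and the pileup was 69 fragments with nucleotides and 98 in DMSO. At chr16:69364401-69364678 there were 98 fragments with nucleotides and 117 in DMSO. At chrX:48814779-48815009 there were 41 fragments with nucleotides and 83 in DMSO, a height ratio of 0.546.

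The absence of a peak gives no height there, only a rough limit on it. The limit was taken as the smallest A771726 pileup that would reach 4.67, the lowest −log10 p of the A771726 list. The background used was the DMSO background of each missing site, scaled to the A771726 library. Width was left out of the limit. No A771726 peak was shorter than 116 bp, so a narrow summit above the limit could also go uncalled. The limit was 9 to 26 fragments at the top 20 missing sites. With a background as high as at the 95th percentile of shared sites it was 11 to 35 fragments. As height ratios these limits were 0.107 to 0.212, with a median of 0.164, and 0.138 to 0.285 at the higher background. The lowest ratio at any shared site was 0.141 and the 5th percentile was 0.264. The 20 sites were chosen as missing and high in DMSO, which by itself makes their limit ratios low. No conclusion is drawn from setting them beside the shared sites. As a check of the limit, 133 of 4253 kept sites (3.13%) had an A771726 pileup below it, and 458 (10.8%) below the one at the higher background.

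**Figure D5:**
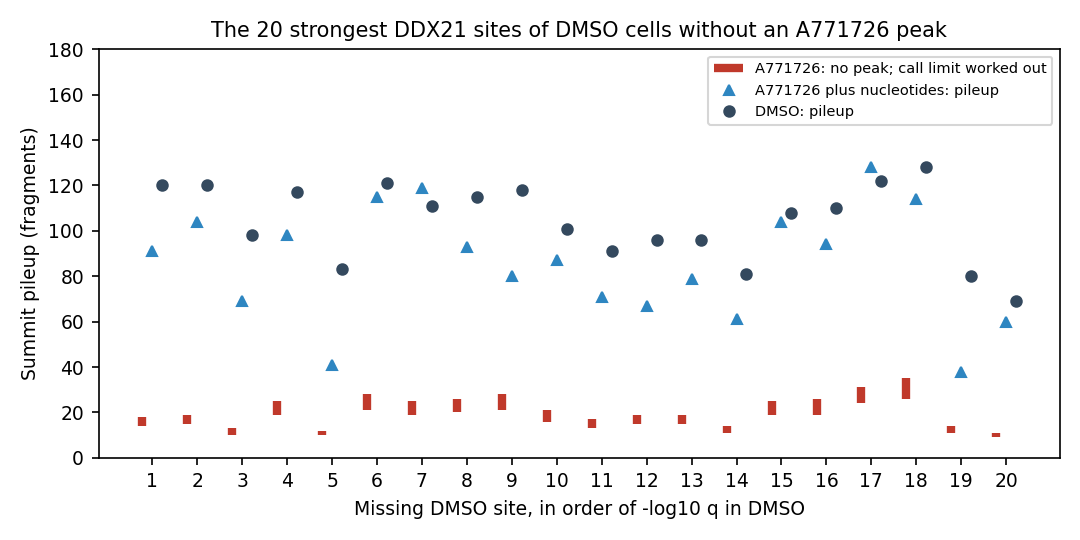
Summit pileup in fragments at the 20 DMSO sites of highest −log10 q without an A771726 peak. Red bars give the range of the rough limit worked out for an A771726 call, at the scaled DMSO background and at a higher one. Triangles give the pileup with A771726 plus nucleotides and circles the pileup in DMSO. The bars lie between 9 and 35 fragments, the triangles between 38 and 128 and the circles between 69 and 128.

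For most missing sites the limit was not low. At 2676 of 4068 missing sites (65.8%) the limit on the height ratio was at or above 0.418, the median of the shared sites. Whether a reduction of that size took them out of the list was not tested. The median itself comes only from sites that were called with A771726. The limit used a background scaled by 0.958, whereas the median background ratio at shared sites was 0.709. A lower background would give a lower limit, and that case was not worked out. The limit was below the 5th percentile of the shared sites at 356 missing sites (8.75%), and at 106 (2.61%) with the higher background. A peak in the list with nucleotides was found at 2936 of the 4068 missing sites (72.2%). Such a peak was found at 7180 of all 8321 DMSO sites and at 4244 of 4253 kept sites. At the 2936 missing sites with such a peak, height was a median of 1.02 times that of DMSO. The other missing sites give no height with nucleotides. The nearest A771726 peak was a median of 122092 bp away and within 1 kb at 244 sites (5.998%).

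Some calls of missing and kept rested on a few base pairs. The DMSO peak at chr1:149804172-149804362 was kept by an overlap of 3 bp, with 21 fragments with A771726 and 35 in DMSO, and that at chr18:59854498-59854625 by 8 bp, with 14 with A771726 and 20 in DMSO. The missing site chr1:149825040-149825230 was 2 bp away from an A771726 peak, and chr20:3800792-3801079 was 26 bp away. Sites this close to the limit were weak in DMSO, with 16 to 60 fragments at the 5 smallest overlaps and 21 to 55 at the 5 closest missing sites.

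Kept and missing sites were interleaved along the chromosomes. In the order of DMSO peaks there were 1972 runs of kept sites and 1967 runs of missing sites, with a median of 2 sites in each. The longest kept runs were 16 sites each. They were chr19:57862309-58193581, with a median height ratio of 0.476, chr19:58666198-59031564, with 0.484, and chrX:114960409-115004911, with 0.519. Both chromosome 19 runs were made of strong sites, with median DMSO pileups of 228.5 and 209.5 fragments. In the chromosome X run the pileup was lower, at a median of 117, on a background of 15.5 fragments.

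The longest missing run, of 15 sites, was also on chromosome 19, at chr19:20277913-23941747, and was made of weak DMSO sites with 15 to 53 fragments. It was followed by 10 sites at chr14:36367611-41831664, with 15 to 55 fragments, and 10 sites at chr19:53030870-53758233, with 13 to 37. Per chromosome the kept share ran from 38.5% on X to 61.0% on chromosome 20. The median DMSO pileup was 39 fragments on X and 83 on chromosome 20. Chromosome Y had the same median pileup as X with 52.6% of its 19 peaks kept, and chromosome 19 had a median of 87 with 59.8% kept.

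The 30 sites that were new by the 1 bp rule were mostly weak. Their pileups were 10 to 63 fragments with a median of 16, against 47 at A771726 peaks on DMSO sites, and their median width was 138 bp, with 7 at the shortest length of the list, 116 bp. Within 1 kb of a DMSO peak there were 5, and 21 were more than 10 kb from any. The list with nucleotides had a peak at 6 of the 30, and the share over all A771726 peaks is not given here.

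The highest-ranked new sites belonged to a group on chromosome 8, where 5 peaks lay between positions 43092765 and 43097008, at least 143651 bp from any DMSO peak. The highest-ranked was chr8:43095841-43096057, at rank 2256 of the A771726 list, with 47 fragments and a fold enrichment of 8.28. Beside it lay chr8:43094708-43094924, with 49 fragments, and chr8:43092765-43093218, with 63 fragments on a background of 12.8. The next of the group, chr8:43094975-43095299, had 19 fragments. A further 3 new sites lay on chromosome 2 between 224837440 and 224903534, with 13 to 23 fragments, the highest at chr2:224903342-224903534. Away from these groups, the next were chr7:133762214-133762333, with 18 fragments, and chr11:123453969-123454178, with 36. They were followed by chr1:228748265-228748386, with 46 fragments on a background of 14.4 and 2080 bp from a DMSO peak, chr3:75708067-75708197, with 20, and chrX:125714976-125715091, with 14. The other 20 new sites had 10 to 23 fragments and fold enrichments of 3.001 to 5.54. No DMSO pileup is known at these positions, since a list holds only called peaks.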

How the data were processed

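Peak lists of DDX21 chromatin immunoprecipitation from A375 cells were used as deposited, 1 library per group. The submitters' processing notes name Bowtie, MACS2 2.0 and hg19. Which control each call used, and how duplicate and repeat reads were treated, is not given in the sources used here. The deposited columns are a score, a fold enrichment (a ratio) and −log10 p and −log10 q, all made by the authors' peak caller. The score was not used. The lowest −log10 q was 1.32 with A771726 and 1.31 in DMSO, just above the value of a q of 0.05.

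Pileup and background were solved from fold enrichment, taken as (pileup + 1)/(background + 1), and −log10 p, taken as a Poisson tail. A whole-number pileup met both within 0.001 for 100% of peaks. The DMSO peak was paired with the overlapping A771726 peak of highest −log10 q. Tags relative to DMSO are the lowest background over the shortest peak. Regions named were the top sites by −log10 q among kept, missing and new sites, the extremes of height ratio among the stronger shared sites, the smallest overlaps, the widest peaks and the longest runs. The top A771726 sites, the highest ratio of all, the highest pileups among missing sites, and the stretches and groups marked off by position were added after values were seen. The sites and lists were chosen with earlier results of these data known. The intended use of gene names and sequences was left out, because the reference at hand is of another build.

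The steps were tested on simulated data. Analyses used Python 3.11.15, numpy 2.4.6, scipy 1.17.1, pandas 2.3.3 and matplotlib 3.10.9.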

Additional observations from a re-analysis of the deposited data

How the results depend on the processing

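Of 73 alternatives, 65 were planned, 8 were added after seeing the data, 37 left the value within its 95% interval, 12 left a count within 1.5 times, 24 moved a value further and 0 reversed a direction. The share of DMSO sites kept was 52.3% at −log10 q of at least 5, 53.7% with peaks within 1 kb merged and 88.5% between the same number of top peaks of each list. The share of A771726 peaks on a DMSO peak was 99.6% at −log10 q of at least 5, 90.5% among the same number of top peaks, where the DMSO list is cut shorter, and 96.9% with summits within 250 bp. New sites numbered 15 at −log10 q of at least 5, 414 between top peaks and 134 by summits. The median height ratio was 0.412 between top peaks, 0.400 for pileups with no division, 0.542 for fold enrichment and 0.400 for pileup minus background. It was 0.399 without DMSO pileups of at least 90% of the highest, 0.576 with pileups divided by the median background of shared sites and 0.408 without peaks at a background of 10 or more. The share of shared sites lower with A771726 was 99.6% between top peaks, 99.3% for pileups with no division or minus background, 90.6% for fold enrichment, 93.7% by median background and 99.6% without backgrounds of 10 or more. Summits were within 50 bp at 95.5% of shared sites at −log10 q of at least 5 and also between top peaks. The cause of the other moves was not tested. No paired analysis was possible because each group had 1 library. Depth limits what missing means. At 65.8% of missing sites, a height ratio of the median size would have lain at or below the rough limit for a call. Whether a reduction of that size removed them was not tested.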

Other observations

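CDK9, the kinase of P-TEFb, was mapped in the same cells, and its peak lists were set beside the DDX21 sites by overlap of at least 1 bp. The CDK9 lists differ in length, with 290 peaks with A771726, 3099 with nucleotides and 3462 in DMSO, so overlaps are not compared between them. The CDK9 list with A771726 overlapped 35 of 4253 kept DDX21 sites (0.823%, Clopper-Pearson 95% interval 0.574 to 1.14) and 5 of 4068 missing sites (0.123%, 0.0399 to 0.287). The list with nucleotides overlapped 277 kept sites (6.51%, 5.79 to 7.297) and 165 missing sites (4.06%, 3.47 to 4.71). The CDK9 list in DMSO overlapped 377 kept sites (8.86%, 8.03 to 9.76) and 237 missing sites (5.83%, 5.13 to 6.59). Kept sites were taller and wider in DMSO than missing ones, so these shares are not matched for the strength of the DDX21 peak.

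Of the 30 new sites, 7 overlapped a CDK9 peak with A771726, 11 with nucleotides and 9 in DMSO, and 17 overlapped none in any list. Over all 4375 A771726 DDX21 peaks, new ones included, 42 (0.96%) overlapped a CDK9 peak with A771726, 282 (6.45%) with nucleotides and 374 (8.55%) in DMSO. In the group on chromosome 8, all 5 overlapped a CDK9 peak with nucleotides, 3 with A771726 and 1 in DMSO. All 3 new sites on chromosome 2 overlapped a CDK9 peak in DMSO, and 2 of them with A771726. These positions thus had peaks of both antibodies, in part from unlike treatments, and the input libraries were not analysed here. Within the A771726 lists, both were found at 3 of the 5 sites on chromosome 8 and 2 of the 3 on chromosome 2.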
